A study of Mus musculus with 18 samples.

Results

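The 10 genes of the epithelial antimicrobial and mucus barrier described here were followed across the mouse small bowel and colon: Reg3b, Reg3g, Dmbt1, Lyz1, Defa24, Defa26, Defa30, Ang4, Itln1 and Tff3. They were chosen by name, all 10 were present among the 32285 genes of the files, and none of their values entered the choice of cells in which they were read. Those cells were an epithelial gate (at least 3 Epcam molecules and no Ptprc, the gene of CD45) and, as a measure of free RNA, a T cell gate (at least 1 Cd3e molecule). Droplet single-cell RNA and hashtag libraries came from CD45-enriched cells of 3 tissues: the small bowel epithelium, the small bowel lamina propria and the whole colon, in which both layers were combined. Each of 3 independent runs pooled 1 St8sia6 knockout (KO) mouse, 1 heterozygote (het) and 2 wild-type (WT) mice by organ, after each genotype had received its own hashtag antibody, so a WT value averages 2 mice and cannot be split between them. The deleted gene, St8sia6, codes for a sialyltransferase of glycans. All cells had passed a Percoll gradient and positive selection for CD45, so the epithelial cells are those that carried over, and their number and mix need not match the tissue. The labels give no age, sex or treatment of the mice.

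Each tissue had 3 gene expression libraries with 31029603 to 67784576 molecules (unique molecular identifiers, UMIs) and 5068 to 7753 cells after the study's own limits on genes, UMIs and mitochondrial share. The epithelial gate held 803 (small bowel epithelium), 1094 (lamina propria) and 2459 (colon) cells, and the T cell gate held 13343, 2802 and 6416. Between 12 and 58 cells per tissue met both gates. No cell barcode was shared between the genotypes of a library, while 139 to 197 were shared between libraries of a tissue. In all kept cells St8sia6 itself was lower in KO than in WT in 3 of 3 libraries of the lamina propria (35.3 ± 3.94 against 60.6 ± 7.86 CPM, SD, n = 3) and of the colon (8.43 ± 1.32 against 15.0 ± 3.49 CPM). Het lay between them in the means (45.6 and 12.6 CPM), although in colon library 3 het (14.3 CPM) was above WT (12.4 CPM). Among small bowel epithelium cells it measured 3.04 ± 1.84 CPM in KO and 3.49 ± 1.56 CPM in WT, so there it did not separate the genotypes, which rest on the hashtag alone. Library 2 of the lamina propria stood apart in the epithelial gate, and hashtags of epithelial-gate cells were uncertain in libraries of all 3 tissues. Both limits are given with the results.

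Intestinal epithelium defends itself with secreted proteins from a few cell types. Paneth cells at the base of small bowel crypts release alpha-defensins and lysozyme, goblet cells release mucins, trefoil factors and lectins, and absorptive cells release the Reg3 lectins when microbes and interleukin-22 signal through STAT3. Reg3b and Reg3g are C-type lectins that bind bacteria, Dmbt1 is a scavenger-receptor glycoprotein of the mucus, Lyz1 is the lysozyme of Paneth cells, Defa24, Defa26 and Defa30 are alpha-defensins, Ang4 is a ribonuclease with bactericidal activity, Itln1 is a lectin that binds microbial sugars, and Tff3 is the trefoil peptide of goblet cells. The mouse colon normally has no Paneth cells.

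In GRCm38.p6 coordinates Reg3b (chr6:78370885-78373466) and Reg3g (chr6:78466269-78468874) both lay on chromosome 6, and the defensins Defa30 (chr8:21134650-21135598), Defa26 (chr8:21618168-21618972) and Defa24 (chr8:21734494-21735471) lay in the defensin cluster of chromosome 8. Lyz1 lay at chr10:117287795-117292868, Ang4 at chr14:51763892-51773590, Itln1 at chr1:171518123-171535325, Dmbt1 at chr7:131032057-131121628 and Tff3 at chr17:31125306-31129611, and all 10 are annotated as protein coding. Members of the Reg3, lysozyme, angiogenin and defensin families are close in sequence, so the counting may have divided or dropped reads that fit several copies. Promoter sequence from RefSeq was at hand for 6 members. The 250 bases before the start of 4 genes are shown because the levels of these genes separate below: the Reg3 pair together, Ang4 by genotype and Defa30 by tissue. Capitals mark matches on either strand to the TATA box TATAAA, the STAT palindrome TTCNNNGAA and the TCF/LEF motif CTTTGAT.
Reg3b, chr6:78370635-78370884, plus strand: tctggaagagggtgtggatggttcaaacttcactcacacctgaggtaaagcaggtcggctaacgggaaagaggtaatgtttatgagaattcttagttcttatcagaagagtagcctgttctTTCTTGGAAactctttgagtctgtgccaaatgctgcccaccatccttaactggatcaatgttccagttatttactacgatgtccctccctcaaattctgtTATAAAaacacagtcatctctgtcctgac
Reg3g, chr6:78468875-78469124, minus strand: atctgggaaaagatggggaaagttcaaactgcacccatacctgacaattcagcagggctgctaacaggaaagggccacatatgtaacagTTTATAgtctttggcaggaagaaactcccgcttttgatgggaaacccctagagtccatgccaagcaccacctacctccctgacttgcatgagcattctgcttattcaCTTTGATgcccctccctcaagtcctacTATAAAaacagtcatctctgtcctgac
Ang4, chr14:51773591-51773840, minus strand: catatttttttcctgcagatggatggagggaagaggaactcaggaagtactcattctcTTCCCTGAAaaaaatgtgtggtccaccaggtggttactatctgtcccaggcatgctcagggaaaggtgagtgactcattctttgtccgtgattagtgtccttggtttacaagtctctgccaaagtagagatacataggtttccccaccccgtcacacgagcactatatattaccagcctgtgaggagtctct
Defa30, chr8:21134400-21134649, plus strand: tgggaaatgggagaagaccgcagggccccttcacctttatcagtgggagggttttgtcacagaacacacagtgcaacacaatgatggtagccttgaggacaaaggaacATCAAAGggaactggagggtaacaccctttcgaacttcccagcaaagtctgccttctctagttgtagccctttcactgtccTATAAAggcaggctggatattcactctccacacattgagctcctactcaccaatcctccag

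A TATA box began 29 bases before the start of Reg3b, 27 bases before that of Reg3g and 61 bases before that of Defa30. Over all 32851 promoters of this length in the table, 12.4% held TATAAA, 7.02% the STAT palindrome and 3.21% CTTTGAT. The STAT palindrome was present 129 bases before the start of Reg3b and 192 bases before that of Ang4. The TCF/LEF motif was present 54 bases before the start of Reg3g and, on the other strand, 142 bases before that of Defa30. None of the 3 motifs was found in the windows of Lyz1 and Itln1. These matches describe the letters of the windows only.

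The 10 genes spanned a wide range of levels in the epithelial gate. Levels are the gene's share of all UMIs of the gate's pooled cells in a library, on the counts-per-million (CPM) scale, and since each molecule is counted once at its 5′ end they are not divided by transcript length. The lectin Reg3b measured 2939, 2860 and 3533 CPM in the 3 small bowel epithelium libraries (3111 ± 368, SD, n = 3), 749, 3029 and 990 in lamina propria libraries (1590 ± 1252) and 5383, 3309 and 4352 in colon libraries (4348 ± 1037). Its relative Reg3g was lower in each of the 9 libraries, at 1117, 1732 and 1489 CPM (1446 ± 310), then 508, 2184 and 640 (1111 ± 932), then 1124, 932 and 1043 (1033 ± 96.4). Dmbt1 measured 698, 889 and 1186 CPM in small bowel epithelium libraries (924 ± 246), 817, 1136 and 685 in lamina propria libraries (879.5 ± 232) and 1875, 1884 and 1651 in colon libraries (1803 ± 132). Reg3b, Reg3g, Dmbt1 and Tff3 were the 4 members with at least 508 CPM in each of the 9 epithelial-gate libraries.

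Lysozyme and the defensins had a different range. Lyz1 measured 321, 84.6 and 165 CPM in small bowel epithelium libraries (190.4 ± 120), 721, 261 and 916 in lamina propria libraries (633 ± 336) and 2.85, 0.371 and 26.6 in colon libraries (9.93 ± 14.5). Defa24 was the most abundant defensin, at 2562, 2287 and 1416 CPM in small bowel epithelium libraries (2089 ± 598) and 7987, 661 and 9042 in lamina propria libraries (5897 ± 4565). Defa30 measured 520, 28.3 and 178 CPM and then 975, 79.8 and 2760. Both small bowel tissues held the defensins in every library, but the spread between libraries reached more than 10-fold.

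Defa26 was the lowest defensin, at 21.1, 2.77 and 3.63 CPM in small bowel epithelium libraries and 70.1, 5.62 and 90.9 in the lamina propria. The colon held almost no defensin: Defa24 gave 115 UMIs, of which 114 lay in 1 cell of library 2, Defa26 gave 1 UMI and Defa30 gave 0 among 48537629 UMIs. A floor of 3 UMIs over the colon epithelial gate corresponds to 0.0618 CPM, and like the other floors and intervals here it covers counting error only. In the lamina propria, library 2 was the lowest of the 3 for Lyz1, Defa24, Defa26, Defa30, Ang4 and Itln1 and the highest for Reg3b, Reg3g, Dmbt1 and Tff3.

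Tff3 was the most abundant of the 10 genes in the epithelial gate of the small bowel epithelium. Tff3 measured 11158, 14800 and 6706 CPM there (10888 ± 4054), 1229, 2123 and 1504 in lamina propria libraries (1618 ± 458) and 864, 1076 and 711 in colon libraries (884 ± 184). Ang4 measured 581, 304 and 342 CPM in small bowel epithelium libraries (409 ± 150), 395, 23.8 and 745 in lamina propria libraries (388 ± 361) and 13.8, 11.1 and 118 in colon libraries (47.6 ± 60.9). Itln1 measured 382, 389 and 174 CPM (315 ± 122), then 824, 177 and 811 (604 ± 370), then 2.94, 8.25 and 4.90 (5.36 ± 2.68). Ang4 and Itln1 thus did not overlap between either small bowel tissue and the colon, except that lamina propria library 2 (23.8 CPM of Ang4) lay below colon library 3 (118 CPM).

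**Figure D1:**
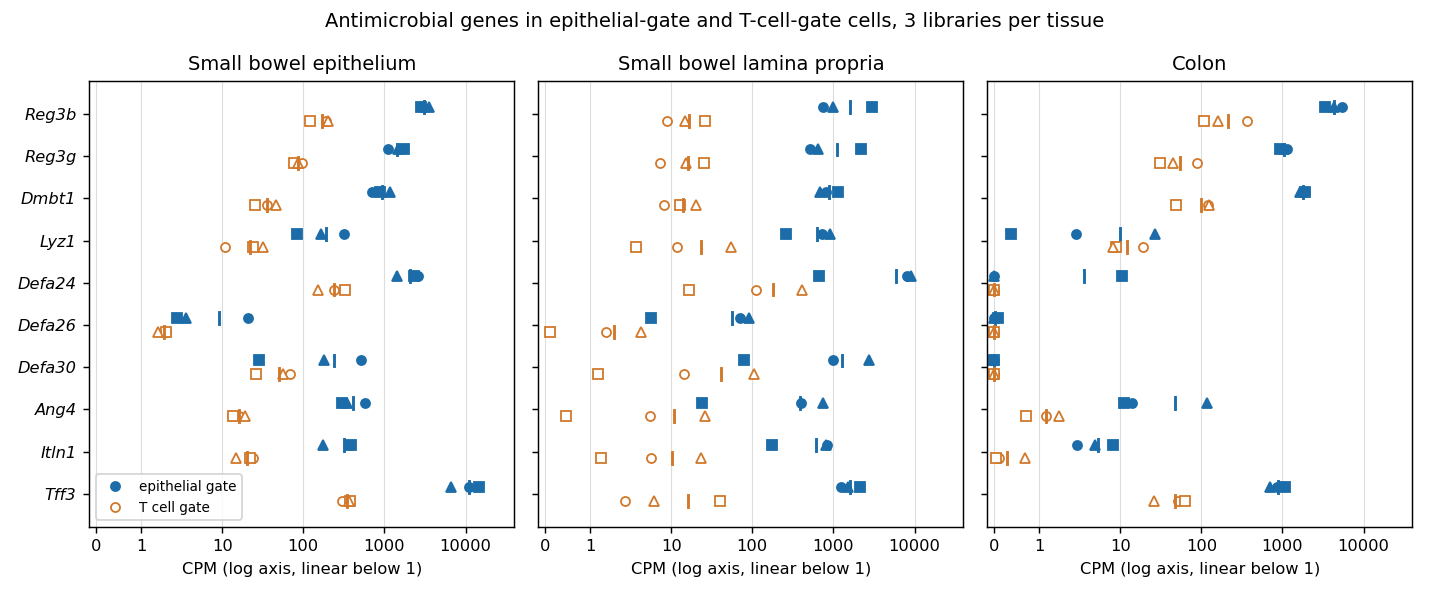
Level of each gene (CPM, log axis that is linear below 1) in epithelial-gate cells (filled blue) and T-cell-gate cells (open orange) of each tissue; circles, squares and triangles are libraries 1, 2 and 3 and short bars are means. Epithelial means lie right of the T cell means except for Lyz1 in the colon (9.93 against 12.1 CPM) and Defa30 there (0 in both), and single libraries of the 2 gates overlap for colon Lyz1, for Defa30 in the small bowel epithelium (28.3 against 68.9 CPM) and lamina propria (79.8 against 106 CPM) and for Ang4 in the lamina propria (23.8 against 26.5 CPM). Colon Defa24 and Defa26 are 0 in each T cell library and in epithelial libraries 1 and 3.

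The share of cells with at least 1 UMI was read in both gates. In the small bowel epithelium 62.7% ± 4.06 of epithelial-gate cells held Tff3, 55.2% ± 7.42 Reg3b, 45.0% ± 12.9 Defa24, 18.4% ± 1.55 Lyz1 and 2.03% ± 1.00 Defa26 (SD, n = 3). In the T cell gate of the same libraries, where a share is read as free RNA, the values were 32.2% ± 1.88, 25.0% ± 4.80, 25.0% ± 10.5, 6.14% ± 3.53 and 0.580% ± 0.269. The median depth was 7903 UMIs per epithelial cell and 5054 per T cell, so each cell was also thinned to 1000 UMIs, which left out 41 epithelial and 123 T cells. The thinned shares were 38.7% ± 7.45 against 9.40% ± 0.769 for Tff3, 27.4% ± 6.74 against 7.25% ± 1.59 for Reg3b and 18.1% ± 4.65 against 7.52% ± 3.40 for Defa24. In the colon, Dmbt1 was found in 76.2% ± 2.61 of epithelial cells and in 22.7% ± 9.96 of T cells, and after thinning in 52.6% ± 1.14 and 5.85% ± 2.47. For Lyz1 in the small bowel epithelium the thinned shares were 4.69% ± 1.00 and 1.56% ± 1.04. At equal depth the mean share was thus higher in the epithelial gate for Tff3, Reg3b, Defa24 and Lyz1 in the small bowel epithelium and for Dmbt1 in the colon.

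The first comparison asked how far the epithelial gate stood above the T cell gate of the same captures, read as free RNA. Cells that met both gates counted in both, 12, 23 and 23 in small bowel epithelium libraries 1 to 3. Among them was the cell richest in Defa24 (4465 UMIs), so the T cell level is not free RNA alone. In the small bowel epithelium all 10 genes were higher in epithelial cells (edgeR quasi-likelihood test with the library as a block, Benjamini-Hochberg adjusted p under 0.05, n = 3 sums per gate), where 34.4% of the 15059 genes tested were called higher. The log2 differences ranged from 1.70 ± 0.37 for Defa30 and 1.99 ± 0.47 for Defa26 to 4.76 ± 0.24 for Dmbt1 and 4.96 ± 0.28 for Tff3 (± SE). The defensins and Lyz1 (3.04 ± 0.45, Defa24 3.20 ± 0.21) had smaller differences than Reg3b (4.26 ± 0.23), Reg3g (4.09 ± 0.25), Itln1 (3.95 ± 0.19) and Ang4 (4.66 ± 0.23). The median over the 10 was 4.02, against -0.18 over all genes tested. Without library 1, which held 94 of the 118 Defa26 UMIs of the gate, the Defa26 difference lost its call (edgeR adjusted p = 0.10), and Defa30 was 1.05 and Lyz1 2.20. Against T cells without an Epcam UMI, and with no Cd3e in the epithelial gate, the folds were over 1.5 times larger for 8 genes, with log2 differences of Reg3b at 5.75, Dmbt1 at 6.42 and Tff3 at 7.07.

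The lamina propria also had all 10 genes higher in the epithelial gate, against 34.7% of all genes called higher, with differences from 4.46 ± 0.19 for Defa26 to 6.99 ± 0.74 for Tff3 (median 5.26, against -0.00 over all genes). With 1 library left out there, Tff3 ranged from 6.32 (without library 1) to 7.89 (without library 2). In the colon 7 of the 10 genes passed the filter on low counts and 6 were higher, where 37.4% of all genes were called higher. These were Ang4 (4.81 ± 0.49), Reg3b (4.39 ± 0.26), Reg3g (4.25 ± 0.30), Dmbt1 (4.18 ± 0.39), Tff3 (4.18 ± 0.19) and Itln1 (4.13 ± 0.70). Without library 3 Ang4 was 3.58 and Itln1 5.90, and without library 2 Itln1 was 3.21. The 3 defensins did not pass the filter there. Colon Defa24 was at least 46.1-fold higher in the epithelial than in the T cell gate when the absent T cell signal is set at 3 UMIs over the group, and that value rests on the 1 cell named above.

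Lyz1 was the exception in the colon, with a log2 difference of -1.21 ± 1.15 (edgeR adjusted p = 0.38), and it was -3.29 without library 3 (0.00439). Colon T-gate cells measured 19.4, 8.78 and 8.08 CPM of Lyz1. Among these cells the 421 that also held Csf1r, a receptor of macrophages, measured 92.3, 79.1 and 48.1 CPM (73.2 ± 22.7), and the 5995 without Csf1r measured 0.569, 1.47 and 0.872 CPM (0.972 ± 0.461). Lyz2, the lysozyme of macrophages, was 3107 ± 60.9 CPM in the former and 27.2 ± 3.46 in the latter. Myeloid-gate cells of the colon (Csf1r without Epcam or Cd3e) held 154 ± 75.9 CPM of Lyz1 and 6747 ± 1537 of Lyz2, whereas colon B cells held 2.36 ± 2.94, plasma cells 4.11 ± 2.62 and fibroblasts 0 CPM of Lyz1. Lyz1 in the colon was thus higher in cells with a macrophage receptor than in epithelial cells, in which 10 cells held 99.0% of its 499 UMIs. How many of the Lyz1 UMIs come from reads shared with Lyz2 was not tested.

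The defensin Defa24 was also found outside the epithelium. Lamina propria Defa24 measured 178 ± 203 CPM in T cells, 298.5 ± 333 in B cells, 182 ± 149 in plasma cells, 246 ± 311 in myeloid cells and 162 ± 179 in fibroblasts (SD, n = 3). Each of these means lay within 1 SD of the others. Library 3 of the lamina propria had the highest T cell level of Defa24 (405 CPM) and library 2 the lowest (16.4 CPM), the same order as in the epithelial gate (9042 and 661 CPM). In the colon no T cell held any Defa24, Defa26 or Defa30.

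Within the epithelium the genes divided into 2 patterns. Cells with at least 3 UMIs of Muc2, the gel-forming mucin of goblet cells, were compared with epithelial-gate cells without Muc2. In the small bowel epithelium Tff3 (8.94 ± 0.30), Ang4 (7.47 ± 0.70), Itln1 (6.62 ± 0.64), Defa24 (6.03 ± 0.65), Lyz1 (4.50 ± 0.73) and Defa26 (4.18 ± 0.67) were higher in the goblet gate (log2 ± SE, edgeR with library block), 6 of 10 where 22.4% of all genes were called higher. Dmbt1 (-2.11 ± 0.38), Reg3b (-1.27 ± 0.21) and Reg3g (-0.49 ± 0.17) were lower, 3 of 10 where 21% of all genes were called lower. Defa30 differed by 2.50 ± 1.21 (edgeR adjusted p = 0.13), and passed without library 2 (0.0340) or library 3 (0.00507) and without the block (0.0193). The Reg3g call was lost under 6 alternatives, among them DESeq2 (adjusted p = 0.0516), no block (0.166), and leaving out library 1 (0.136) or library 2 (-0.24, 0.290). Without library 1 the folds of Lyz1 (3.25), Defa24 (5.16), Itln1 (5.77) and Ang4 (6.48) were smaller, and without library 2 that of Dmbt1 was -1.43.

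The lamina propria gave the same division for 8 genes: Itln1 (7.93 ± 0.44), Ang4 (7.54 ± 0.49), Defa26 (7.32 ± 0.40), Lyz1 (7.28 ± 0.32), Tff3 (7.23 ± 0.30) and Defa24 (6.73 ± 0.68) were higher, against 12.4% of all genes, and Dmbt1 (-1.54 ± 0.17) and Reg3b (-1.19 ± 0.34) were lower, against 11%. Reg3g differed by 0.38 ± 0.19 and Defa30 by 5.79 ± 1.96, and neither passed (edgeR adjusted p = 0.19 and 0.058), although Defa30 passed with DESeq2 (adjusted p = 0.0216). Reg3b lost its call when library 3 was left out (-0.58, edgeR adjusted p = 0.113) or the block was dropped (0.276), and without library 1 Defa24 was 5.78, Defa26 6.56, Ang4 6.87 and Itln1 7.26. In the colon all 7 genes that passed the low-count filter were called. Ang4 (8.05 ± 0.36), Tff3 (7.72 ± 0.19), Lyz1 (5.72 ± 0.99) and Itln1 (4.47 ± 0.36) were higher, against 20.5% of all genes, and Dmbt1 (-1.32 ± 0.11), Reg3b (-0.64 ± 0.05) and Reg3g (-0.41 ± 0.12) were lower, against 18.7%. The colon Lyz1 call was lost with DESeq2 (adjusted p = 0.38), the Reg3b call without the block (edgeR adjusted p = 0.0623) and the Reg3g call without library 1 (0.126), without library 3 (0.101) and with no filter on cells (0.0571). Without library 3 the colon Ang4 fold was 6.58, and without library 2 that of Itln1 was 3.87.

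**Figure D2:**
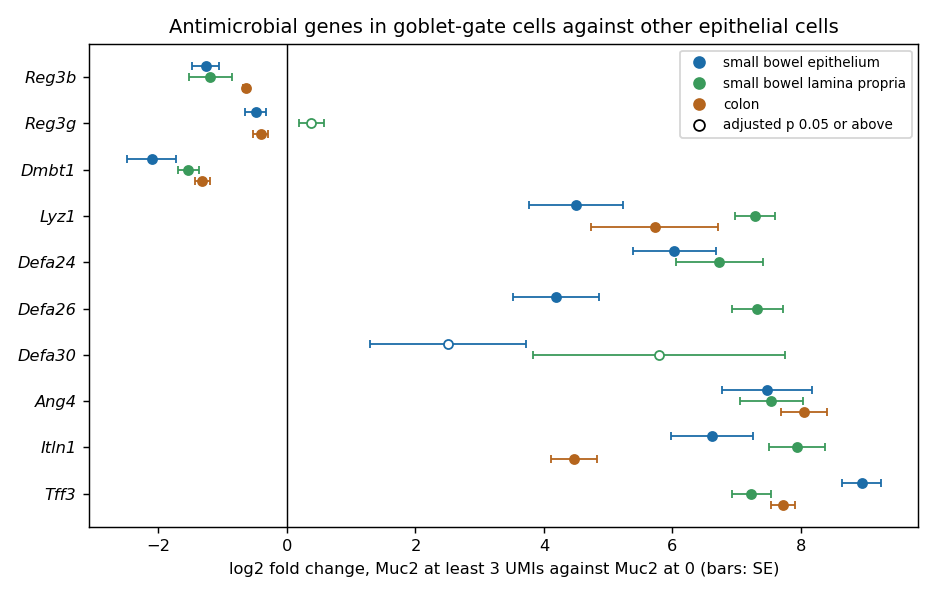
Log2 fold change of each gene between goblet-gate cells and Muc2-negative epithelial cells in the 3 tissues (points, with SE bars); open points did not pass an adjusted p of 0.05 and missing points did not pass the filter on low counts. Tff3, Ang4, Itln1, Lyz1, Defa24 and Defa26 lie right of 0 and Dmbt1 and Reg3b left of 0 in each tissue in which they were tested.

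The Muc2 gate did not hold goblet cells alone. In the lamina propria 59 of its 92 cells (64.1%) also held Mmp7, the protease with which Paneth cells process defensins, against 33 of 233 (14.2%) in the small bowel epithelium and 37 of 727 (5.09%) in the colon. Defa24 measured 71906 ± 58756 CPM in the lamina propria cells that met both gates and 827 ± 652 CPM in goblet-gate cells without Mmp7. Lyz1 measured 7529 ± 4293 and 71.0 ± 102 CPM in the same cells. Ang4 measured 4383 ± 4002 and 788 ± 426 CPM, and Tff3 measured 12639 ± 5110 and 15013 ± 8131 CPM. The small bowel epithelium showed the same order, with 17478 ± 7140 against 2569 ± 1813 CPM for Defa24, 1659 ± 1109 against 87.9 ± 30.2 for Lyz1 and 1856 ± 965 against 1548 ± 878 for Ang4. Defa24 and Lyz1 were lower in the goblet-gate cells without Mmp7 in each of the 3 libraries of both small bowel tissues, while the Ang4 values of the 2 kinds of cell overlapped in both. These sub-gates were described without a test.

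Absorptive cells, gated by Apoa1 in the small bowel and by the carbonic anhydrase Car1 in the colon, held more Reg3b than crypt cells. Reg3b in them measured 5636 ± 174 CPM (small bowel epithelium), 9573 ± 7722 CPM (lamina propria, 23 cells) and 12521 ± 2696 CPM (colon), against 458 ± 278, 543 ± 504 and 2042 ± 272 CPM in crypt cells (Olfm4 or Lgr5). Reg3g followed, at 2212 ± 859, 3853 ± 2009 and 2780.3 ± 223 CPM in absorptive cells. Dmbt1 measured 562 ± 224 CPM in absorptive and 1146 ± 190 in crypt cells of the small bowel epithelium, against 3014 ± 243 and 1258 ± 102 in those of the colon. Enteroendocrine cells of the small bowel epithelium held 7171 ± 8453 CPM of Reg3b, from 5 to 8 cells per library. Tff3 also measured 9489 ± 4966 CPM in absorptive cells of the small bowel epithelium and 41.9 ± 37.6 in those of the lamina propria.

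**Figure D3:**
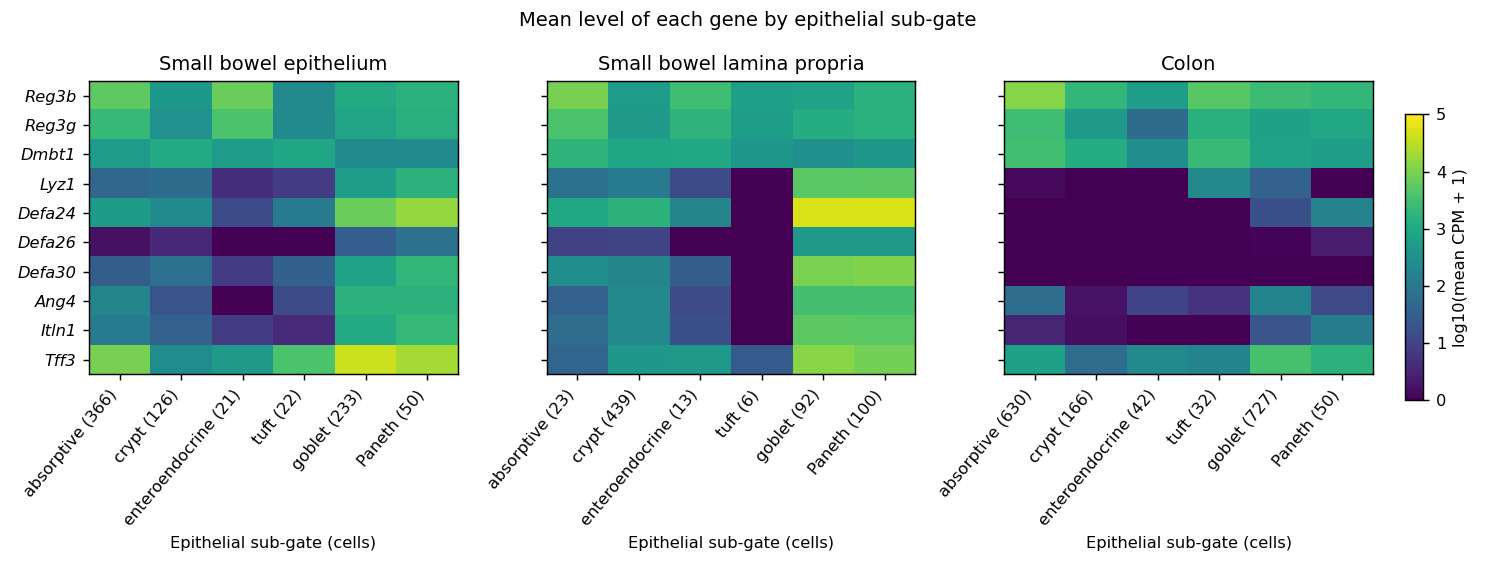
Mean level of each gene over the libraries (colour, log10 of mean CPM plus 1) in marker-defined, overlapping sub-gates of the epithelial gate, with the number of cells in brackets. Reg3b and Reg3g are brighter in absorptive than in crypt cells of each tissue, and Lyz1, the defensins, Ang4 and Itln1 in the goblet and Paneth (Mmp7) gates of the small bowel.

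Some genes were carried by a handful of cells. The 10 richest cells held 76.5% of the Defa24 UMIs of the small bowel epithelium's epithelial gate, 85.8% of the Lyz1 UMIs and 93.6% of the Defa30 UMIs, and in the lamina propria 85.2%, 86.2% and 95.7%. A single lamina propria cell held 14632 UMIs of Defa24. Dmbt1 was spread widely, with 22.0% of its UMIs in the 10 richest cells of the small bowel epithelium, 12.0% in those of the lamina propria and 5.17% in those of the colon. Reg3b and Reg3g coincided: of 133 small bowel epithelium cells with at least 10 Reg3b UMIs, 82.0% also held at least 10 Reg3g UMIs, against 17.1% of all epithelial-gate cells. The shares were 84.1% of 176 cells against 17.6% in the lamina propria and 70.2% of 614 cells against 18.6% in the colon. Cells rich in Ang4 were rich in Tff3 in the small bowel epithelium (98.2% of 55 cells, against 29.8% of all). Of the same cells 54.5% were rich in Itln1, 43.6% in Defa24 and 14.5% in Lyz1, against 5.48%, 9.22% and 1.87% of all. In the lamina propria 79.3% of 29 Ang4-rich cells were rich in Tff3 and 72.4% in Defa24, against 10.2% and 12.4% of all. The Tff3 share in the colon was 54.2% of 24 cells, against 14.4%.

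The next comparison set the tissues against each other within the epithelial gate, with 9 library sums in 1 fit and no pairing. Tff3 (log2 3.71 ± 0.33), Itln1 (5.97 ± 0.72) and Lyz1 (4.33 ± 1.23) were higher in the small bowel epithelium than in the colon, where 19.4% of all genes were called higher. The 3 defensins were called as well, which made 6 of 10. With 115 (Defa24), 1 (Defa26) and 0 (Defa30) UMIs in the colon gate, they passed the low-count filter only through the small bowel sums. Their direction was thus set in advance, and their calls are no support. Set against the 3-UMI floor of the colon, Defa30 was at least 4298-fold higher in the small bowel epithelium and at least 19533-fold higher in the lamina propria, and these bounds were 1813 without small bowel epithelium library 1 and 10972 without lamina propria library 3. Defa26, with 1 UMI in the colon, had ratios of 484 (95% counting interval 85.2 to 19281) and 2884 (516 to 114028), and the first was 158 without small bowel epithelium library 1. Dmbt1 was lower in the small bowel epithelium than in the colon (-0.88 ± 0.22, edgeR adjusted p = 0.0105), 1 of 10 where 18.8% of all genes were called lower. Ang4 (3.18 ± 1.19, edgeR adjusted p = 0.0597), Reg3g (0.57 ± 0.45, 0.36) and Reg3b (-0.40 ± 0.43, 0.50) did not pass. The Lyz1 call was lost without small bowel epithelium library 1 (0.0522) or colon library 1 (0.0636), and the Defa26 call without small bowel epithelium library 1 (0.0818). Ang4 passed with DESeq2 (adjusted p = 0.0284), with no filter on low counts (0.0296), without lamina propria library 2 (0.0219) and without colon library 3 (5.13, 0.0147).

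Between the small bowel layers 2 of 10 genes were called. Tff3 was higher in the epithelium (2.61 ± 0.32, edgeR adjusted p = 0.000328, 17% of all genes called higher) and Defa26 lower (-2.72 ± 0.89, edgeR adjusted p = 0.0423, 15.3% called lower). The count was 1 to 5 with 1 library left out, and it was 5 without lamina propria library 2. The Defa26 call was lost with DESeq2 (adjusted p = 0.0820) and in 7 of 9 fits that left out a library (0.0616 to 0.128), including those without any 1 colon library. In the T cell gate, Reg3b (2.50 ± 0.52), Reg3g (1.59 ± 0.47) and Tff3 (3.54 ± 0.82) were higher in the epithelium than in the lamina propria, 3 of 10 where 32.8% of all genes were called higher. Against the colon, T cells of the epithelium held more Tff3 (2.63 ± 0.77), Ang4 (3.45 ± 0.89) and Itln1 (5.89 ± 0.99), against 27.2% of all genes called higher. The 3 defensins were called as well, which made 6 of 10. Colon T cells held 0 UMIs of each defensin and 16 of Itln1. The defensins thus passed the low-count filter only through the small bowel sums, and their calls are no support. The T cell floor gave Defa24 at least 4717-fold and Defa30 at least 953-fold higher. However, the 10 richest cells held 61.3% of the Defa24 and 45.4% of the Defa30 UMIs of that gate. The 2 cells richest in Defa24 held 4465 and 3969 of its UMIs and also 7 and 20 Epcam UMIs. T-gate Dmbt1 was lower in the epithelium (-1.75 ± 0.41), against 28.8% of all genes. In T cells without an Epcam UMI the calls of Reg3g against the lamina propria (0.91, edgeR adjusted p = 0.135) and of Ang4 against the colon (2.36, 0.112) were lost, and Tff3 against the colon was 1.53. The fitted log2 differences of Defa24, Defa26 and Defa30 against the colon were 12.5, 6.11 and 11.0 there, against 14.8, 7.85 and 12.6 in the whole gate. Since colon T cells held 0 UMIs of these 3 genes, the size of these values has no measured reference. Without colon library 3 the Tff3 call against the colon was lost (2.35, 0.0615), and without lamina propria library 2 Tff3 against the lamina propria was 5.50.

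Genotype was compared within each tissue by fitting KO, het and WT sums together, blocked by library, and KO and het share the WT sums. Ang4 was the member called in the colon and in the small bowel epithelium. In the colon epithelial gate it measured 30.3, 43.5 and 242 CPM in WT, 1.84, 3.16 and 3.04 CPM in het and 1.01, 3.42 and 7.39 CPM in KO, so WT did not overlap either genotype. Ang4 was lower in KO (log2 -4.58 ± 0.29, edgeR adjusted p = 0.0044) and in het (-4.69 ± 0.36, edgeR adjusted p = 0.018), 1 of 7 genes tested in each, where 0.0154% and 0.0077% of the 12984 genes were called lower. Without the block neither call held (edgeR adjusted p = 0.47 and 0.69), and without colon library 1 or library 3 both were lost as well (0.225 and 0.106 for KO, 0.417 and 0.274 for het).

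These colon values rest on few cells. An Ang4 UMI was found in 63 of 1034 WT cells (6.09%), 8 of 364 het cells (2.20%) and 20 of 1061 KO cells (1.89%). At least 10 Ang4 UMIs were held by 6, 2 and 14 WT cells in libraries 1 to 3, by no het cell and by 0, 1 and 1 KO cells, and a single WT cell of library 2 held 68 of its 91 UMIs. Within the goblet gate Ang4 measured 116, 215 and 940 CPM in WT, 4.82, 16.5 and 13.0 in het and 1.98, 10.1 and 26.9 in KO. Goblet-gate cells made up 27.4%, 23.6% and 26.0% of the WT epithelial gate and 33.8%, 31.9% and 32.6% of the KO gate in libraries 1 to 3, and 38.4%, 20.3% and 22.4% of the het gate.

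The small bowel epithelium gave the same direction for Ang4. It measured 759, 390 and 406 CPM in WT, 14.7, 6.48 and 25.4 in het and 32.3, 0 and 156 in KO. The differences were -3.61 ± 0.69 for KO (edgeR adjusted p = 0.034, 1.43% of all genes called lower) and -5.23 ± 0.79 for het (edgeR adjusted p = 0.041, 0.202% called lower). WT did not overlap KO or het, but the KO gate held only 23, 23 and 17 cells, against 211, 251 and 194 in WT, and the KO call was lost without the block (edgeR adjusted p = 0.064) and when any 1 of the 3 libraries was dropped (0.0573 to 0.126). The het call was lost without the block (0.0577), without library 1 (0.0722) or library 3 (0.0677), and with no filter on cells (0.0530). In the lamina propria Ang4 measured 931, 99.3 and 1130 CPM in WT, 44.2, 3.81 and 1055 in het and 36.8, 11.0 and 8.67 in KO, and neither difference passed (KO -4.24 ± 1.40, edgeR adjusted p = 0.65; het -2.32 ± 1.44, 0.93). KO was below WT in 9 of 9 libraries of the 3 tissues. Each run took its organs from 1 KO mouse, so these libraries are repeated organs of the same mice and not 9 independent animals. Whether the 3 tissues' differences in the epithelial gate differ from each other was not tested.

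**Figure D4:**
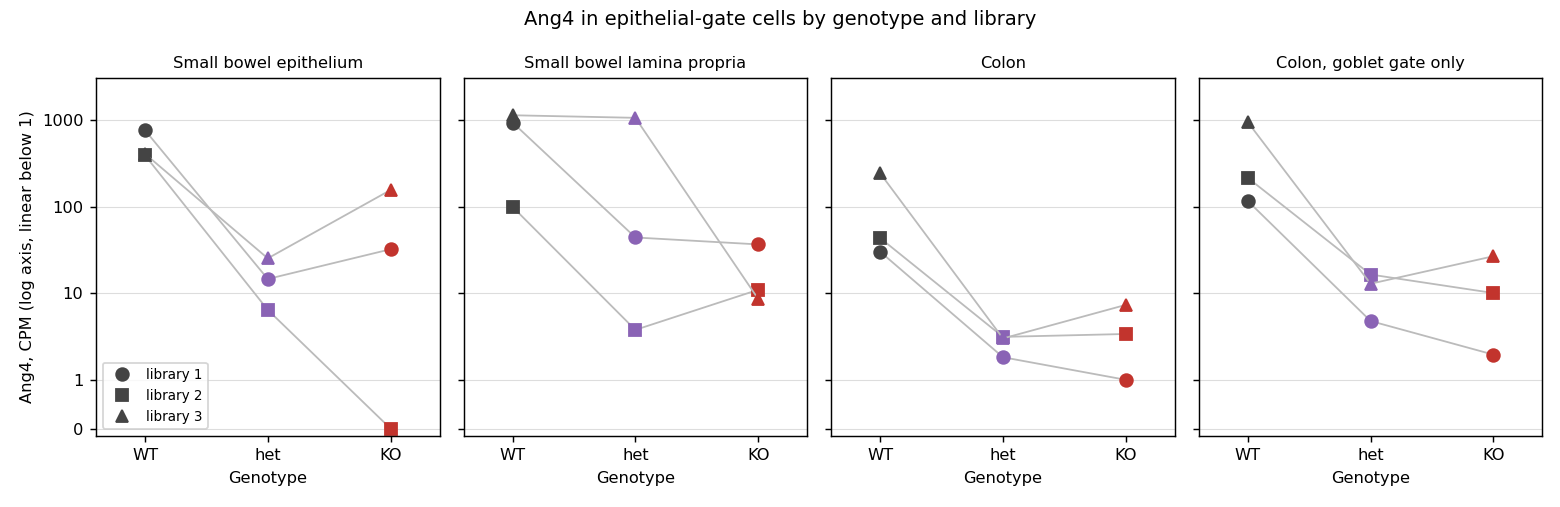
Ang4 level (CPM, log axis that is linear below 1) in epithelial-gate cells by genotype, with a marker and line for each library, and in colon goblet-gate cells alone. WT points lie above the KO point of the same library in every panel, while lamina propria library 3 shows het (1055 CPM) next to WT (1130 CPM).

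Hashtag certainty differed between these groups. In WT cells of the small bowel epithelium's epithelial gate the WT hashtag was the highest in 80.1% of cells in library 1, 61.4% in library 2 and 100% in library 3. A rule that keeps cells whose top hashtag holds at least 80% of their hashtag UMIs left 4.35%, 13.0% and 0% of the KO cells, so no KO test could be made with it. Absorptive markers also moved with genotype there: the summed level of all 8 was 992 to 3089 CPM in KO and 6637 to 12379 CPM in WT, and the goblet markers summed to 8449 to 42574 and 23581 to 49773 CPM. Under the same hashtag rule the colon epithelial gate kept 10.5%, 10.9% and 15.9% of KO cells and 19.8%, 41.6% and 18.6% of WT cells. In the lamina propria it kept 25.5%, 19.1% and 36.0% of KO cells. The KO hashtag was the highest in 85.9% of KO cells of colon library 2. With that rule the colon Ang4 differences were -7.98 for KO and -6.11 for het (edgeR adjusted p = 0.00677 and 0.00346). The part of cell mix or hashtag assignment in these genotype differences was not tested.

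Reg3g was the second member called in the small bowel epithelium. It measured 964, 992 and 802 CPM in WT, 1164, 1276 and 1574 in het and 2164, 6536 and 7189 in KO, without overlap between KO and WT. The KO difference was 2.30 ± 0.34 (edgeR adjusted p = 0.015, 0.148% of all genes called higher), and it lost its call without library 2 (0.051) or library 3 (0.14). A single KO cell held 742 of 1004 Reg3g UMIs in library 1, 1157 of 2732 in library 2 and 1433 of 2818 in library 3. In WT the richest cell held 409 of 3254, 680 of 2505 and 434 of 2649. Reg3b measured 3108, 1909 and 2242 CPM in WT and 3331, 9290 and 14581 in KO (1.62 ± 0.40, edgeR adjusted p = 0.077). The richest KO cell held 1470 of 1545 Reg3b UMIs in library 1, 2209 of 3883 in library 2 and 3343 of 5716 in library 3. Reg3g in colon epithelial cells differed by 0.31 ± 0.18 (edgeR adjusted p = 1) and in the lamina propria by 1.03 ± 0.51 (0.78). Of the other members in the small bowel epithelium, Defa30 had -3.37 ± 0.87 (0.0868) and Itln1 -1.81 ± 0.63 (0.19) in KO, and Defa24 had -3.77 ± 0.94 (0.15) and Lyz1 -2.71 ± 0.76 (0.20) in het.

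In the lamina propria epithelial gate edgeR called 0 of 10 members in KO (0.0286% of all genes called) and 0 of 10 in het (0.0667%). At an unadjusted p under 0.05 there were 2 and 1, against 701 and 596 of all 10492 genes, and DESeq2 called 1 and 0. Dmbt1 did not overlap between KO (948, 970 and 860 CPM) and WT (605, 404 and 541 CPM), nor between het (970, 1545 and 648 CPM) and WT, with differences of 0.86 ± 0.31 and 0.94 ± 0.31 (edgeR adjusted p = 0.69 and 0.87). Defa24 there ranged from 449.9 to 7913 CPM in KO and from 481 to 12210 CPM in WT, so the groups overlapped.

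In the T cell gate no member was called by edgeR in KO or het in any tissue. In the small bowel epithelium the count was 0 of 10 for KO (0.314% of all genes called) and for het (0.263%). In each, 7 of 10 had an unadjusted p under 0.05, as did 1960 (KO) and 1947 (het) of all 13675 genes tested. DESeq2 called 5 and 6, and its share over all genes is not given here. Defa24 measured 1588, 1498 and 193 CPM in WT T cells, 39.5, 110 and 112 in het and 42.1, 95.8 and 120 in KO (KO -3.69 ± 0.83, edgeR adjusted p = 0.13). In WT library 1 a single cell held 4465 of the 4545 Defa24 UMIs of 516 T-gate cells, and in WT library 2 a single cell held 3969 of 6507. The first of these cells held 7 Epcam, 33 Muc2 and 1 Cd3e UMIs and was also in the epithelial gate, and the second held 20 Epcam, 69 Muc2 and 4 Cd3e UMIs. Among T cells without an Epcam UMI, Defa24 measured 26.2, 101 and 131 CPM in WT, 38.1, 107 and 117 in het and 38.0, 54.5 and 119 in KO, so the groups overlapped. The difference in those cells was -0.27 for KO and 0.058 for het.

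**Figure D5:**
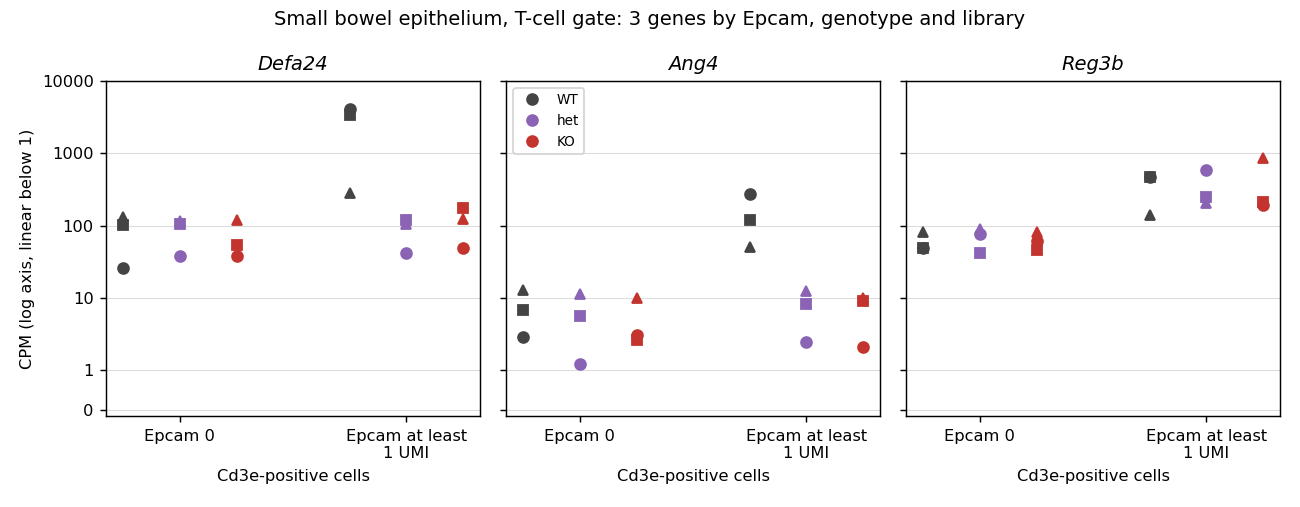
Defa24, Ang4 and Reg3b (CPM, log axis that is linear below 1) in T-gate cells of the small bowel epithelium, split by whether the cell held an Epcam UMI; colours are genotypes and circles, squares and triangles libraries 1, 2 and 3. Without Epcam the Defa24 values of the genotypes overlap, and with it WT reaches 4056, 3402 and 281 CPM of Defa24.

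T-gate counts in the other tissues were 0 of 10 in the lamina propria (0.0285% of all genes called in KO and 0.0095% in het) and 0 of 6 in the colon (0% in KO and 0.00745% in het). At an unadjusted p under 0.05 there was 1 member in each of these 4 comparisons, and DESeq2 called 0 in each. Over all genes that unadjusted count was 1432 (KO) and 920 (het) of 10523 in the lamina propria. It was 820 (KO) and 720 (het) of 13423 in the colon. The test of whether the KO difference varies between tissues called 0 of 10 members and 0% of 14197 genes. In it 4 members and 1336 of the 14197 genes had an unadjusted p under 0.05, and DESeq2 called 1 member.

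Among 59 other antimicrobial and barrier genes, 54 were in the files. In the small bowel epithelium 42 passed the low-count filter, of which 34 were higher and 4 lower in the epithelial than in the T cell gate, where 34.4% of all genes were higher and 41% lower. The lamina propria gave 38 higher and 5 lower of 45 (34.7% and 35.2% of all genes), and the colon 25 higher and 6 lower of 36 (37.4% and 39.1%). By genotype, 3 of 29 tested were lower in KO epithelial cells of the small bowel epithelium, against 1.43% of all genes: the defensins Defa21 (-3.69 ± 0.59, edgeR adjusted p = 0.017) and Defa22 (-2.93 ± 0.42, 0.015) and the gasdermin Gsdmc2 (-2.06 ± 0.40, 0.035). In het 4 of 29 were lower, against 0.202% of all genes: Defa21 (-4.09 ± 0.64), Defa22 (-3.63 ± 0.47), Reg3a (-3.39 ± 0.50) and the kallikrein Klk1 (-1.25 ± 0.21). Each of these 7 calls was lost without library 3 (edgeR adjusted p = 0.148 to 0.332). None was called in the epithelial gate of the lamina propria or the colon by edgeR. Of 8 cytokines that can act on these genes, Il22, an inducer of Reg3 lectins, was higher in small bowel epithelium T cells of KO (3.60 ± 0.48, edgeR adjusted p = 0.0243) and het (3.61 ± 0.48, 0.0282), 1 of 7 tested in each, against 0.139% of all genes called higher in each. Both Il22 calls were lost without the block (edgeR adjusted p = 0.130 and 0.111), without library 1 (0.0882 and 0.122) and without library 2 (0.190 and 0.222). The test of a difference between tissues did not call Il22 (edgeR adjusted p = 0.461).

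The genes most like each member over the 9 epithelial library sums, by Pearson's r of log2(CPM + 1) among 6589 genes, are given as a description, since the sums share tissues and depth. Itln1 was closest to Defa24 (r = 0.99) and also near Mmp7 (0.97). Defa30 was closest to Gm14851 (1.00), Defa22 (0.99) and Defa21 (0.99), and Defa26 to Defa29 (0.99). Ang4 was closest to Pnliprp2 (0.93) and Clps (0.91), both genes of lipid digestion. Reg3b was closest to Dctn5 (0.98), Reg3g to Gon4l (0.96), Lyz1 to Jade1 (0.96), Dmbt1 to Nipsnap2 (0.98) and Tff3 to Casz1 (0.99).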

How the data were processed

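Single-cell UMI counts and hashtag UMI counts were deposited as 1 pooled matrix per tissue; Cell Ranger, Seurat and the mm10 build are named for the deposited counts, per the submitters' processing notes (versions not given in the sources used here). The 9 barcode endings of a matrix were read as 3 libraries of 3 genotypes, and each ending took the genotype of its highest median hashtag. The endings carry no run label, so libraries were not paired between tissues. Cells with 200 to 8000 genes, 300 to 50000 UMIs and under 20% mitochondrial UMIs were kept, and no doublet caller was run. The deposited counts were summed per library, gate and genotype, leaving out sums of under 10 cells. The sums were tested with edgeR 4.0.16 (R 4.3.3; TMM, filterByExpr, quasi-likelihood F test, Benjamini-Hochberg adjustment over all genes, call at 0.05), with DESeq2 1.42.0 as an alternative. SE is the absolute log2 fold change over the square root of F. The scripts were tested on simulated data. Libraries come from independent runs, and a library's genotypes were pooled in 1 capture, so library was a block. In T cells the median correlation of deviations was 0.0679, 0.122 and 0.0964 within a library and -0.0520, -0.0331 and -0.0493 between libraries in the small bowel epithelium, lamina propria and colon. In the epithelial gate it was 0.128, 0.0334 and 0.0477 within a library and -0.0480, -0.00522 and -0.0252 between libraries. Alternatives were no filter on counts or cells, no block, genotype by each cell's hashtags, stricter gates and each library left out. All 10 genes are described in each tissue, with folds where they passed the count filter. The genes, lists and gates were chosen with earlier results of these data known. Promoters come from RefSeq (GRCm38.p6), matched by symbol for 6 of 10 genes (not Defa24, Defa26, Dmbt1 and Tff3).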

Additional observations from a re-analysis of the deposited data

Results flagged for a closer look

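Lyz1 in the T cell gate moved in opposite directions by genotype in the small bowel layers. In the lamina propria KO lay above WT in each of 3 libraries (10.9, 4.61 and 64.2 against 4.27, 1.19 and 57.8 CPM), a mean difference of 5.48 CPM. In the small bowel epithelium KO lay below WT in each of 3 libraries (6.48, 14.6 and 23.1 against 36.0, 50.9 and 41.4 CPM), a mean difference of -28.1 CPM. Neither passed within its tissue (edgeR adjusted p = 0.823 and 0.0674), although the small bowel epithelium difference was called with DESeq2 (adjusted p = 6.26e-08), with no filter on low counts (0.000178) and without library 3 (0.0264), and the test of the difference between tissues did not pass (edgeR adjusted p = 0.225).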

How the results depend on the processing

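The counts of listed genes called moved by over 1.5 times in the genotype comparisons and between the small bowel layers. Single calls also changed in the goblet gate (Reg3g, Reg3b, Defa30, Lyz1), between small bowel epithelium and colon (Lyz1, Defa26, Ang4) and between tissues in T cells (Reg3g, Ang4, Tff3), with the values given above. For KO in epithelial cells of the small bowel epithelium the count was 2, 8 with no filter on low counts, 1 with no replicate block and 0 to 2 with 1 library left out. For het there it was 1, 2 with DESeq2, 7 with no filter on low counts, 0 with no filter on cells, 0 with no replicate block, 3 with genotype from each cell's hashtags, 2 with the stricter gate and 0 to 3 with 1 library left out. In T cells of that tissue the count was 0, 5 with DESeq2, 6 with no filter on low counts and 0 to 4 with 1 library left out for KO, and 0, 6, 7 and 0 to 4 for het. In lamina propria epithelial cells of KO it was 0, and 1 with DESeq2 or no filter on low counts. In colon epithelial cells it was 1 for KO and het, 0 with no replicate block, 0 to 1 with 1 library left out and, for het, 2 with no filter on low counts. Between small bowel epithelium and lamina propria it was 2, 1 with DESeq2 and 1 to 5 with 1 library left out. The difference of KO against WT between tissues gave 0, and 1 with DESeq2. Counts over all genes also moved by over 1.5 times. With DESeq2 they rose in 12 of 23 comparisons and fell in 3, and with no filter on low counts they rose in 12 and fell in 0. The share of all genes called under these 2 alternatives is not given here, so the member counts under them do not set the members apart. The cause of these changes was not tested. Directions reversed with the stricter T cell gate for het Defa24 (from -3.71 to 0.058) and Lyz1 (from -1.35 to 0.32). Between epithelium and lamina propria they reversed with 1 library left out for Reg3g (from 0.26 to between -0.043 and 1.18), Dmbt1 (from -0.07 to between -0.25 and 0.15) and Ang4 (from -0.12 to between -0.64 and 0.84). Colon Lyz1 in epithelial against T cells was -3.29 without library 3. Over all genes KO in small bowel epithelium epithelial cells gave 117 calls, and 0 to 99 with 1 library left out. Ang4 in KO and het stayed lower under each alternative that gave a value in the small bowel epithelium and colon. Knockout epithelial cells of the small bowel epithelium (17 to 23 per library) limit what that comparison can show.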
